A study of Mus musculus with 12 samples.

Results

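Genes for chromatin modifiers and nucleosome remodellers were followed along the posterior neural tube of the mouse embryo. The set was chosen by symbol: every gene of the array platform's annotation whose symbol begins with Kdm, Kmt, Setd, Smarc, Chd, Hdac, Ezh, Dnmt, Tet or Cbx followed by a number or letter, leaving out Kdm5c, Kdm5d and Kdm6a, and counting a gene by the brightest probe set that names it alone. That gave 85 genes of the 18193 the platform annotates, carried by 204 probe sets. Of these, 76 were above the array's median signal on at least 2 of the 12 arrays and entered the tests, among 12089 genes in all. The other 9 were Cbx7, Chd5, Chdh, Dnmt3l, Ezhip, Hdac8, Hdac9, Kdm4d and Tet3, whose highest signals were 9.86 to 19.9. Chdh, choline dehydrogenase, is a metabolic enzyme that only shares the spelling, and Ezhip is an inhibitor of the Polycomb methyltransferase.

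The tissue came from embryos of the outbred CD1 strain at 9.5 days after mating, with no mutation or treatment named in the labels. Embryos were loosened in pancreatin, 2 mg per ml for 1 min, and the neural tube was freed with needles from ectoderm, endoderm and lateral plate and cut into 6 pieces, called part 1 to part 6. Each part has 2 arrays, and per the series' design text the tissue came from 2 embryos, so the error of every value, and every p, rests on 2 animals. RNA was amplified over 2 rounds before labelling. The labels do not say which end of the tube part 1 is, so positions are given here by part number.

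DNA methyltransferases write cytosine methylation and TET dioxygenases oxidise it. Polycomb complexes methylate lysine 27 of histone H3 and, through chromobox proteins that bind this mark, keep developmental genes silent, while the Kmt2 and Setd1 enzymes methylate lysine 4 at active genes and the Kdm enzymes remove these marks. The SWI/SNF, ISWI and CHD families use ATP to slide or evict nucleosomes, and in the neural tube changes of their subunits accompany the passage from progenitor to neuron.

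The level is the deposited MAS5 signal, a linear array intensity that can be compared between arrays for 1 probe set and not between probe sets. Marker genes moved along the same pieces: the summed signal of 8 presomitic mesoderm markers was 5565 and 4020 on the part 1 arrays and 248 and 259.8 on the part 6 arrays, with 4 of the 7 tested lower toward part 6. The sum of 9 neural progenitor markers went from 466 and 659 to 7313 and 7388, with 9 of 9 higher toward part 6, and 6 of 8 surface ectoderm markers were lower toward part 6, with sums of 1297 and 472 in part 1 and 354 and 419.6 in part 6. The 8 neuron markers summed to 181 to 261 over the 12 arrays, with 1 higher and 2 lower of the 5 tested, and the endothelial sum, with 1 gene of 5 tested, ran from 15.0 to 40.6. Of the markers counted here as higher or lower, Nkx6-1 and Olig2 were under the array medians in parts 1 to 4. Tbx6, Cdh1 and Ebf2 were under them in parts 3 to 6. These markers entered the test only through the parts where they are high, so the size of their changes is not resolved. Cell cycle markers summed to 10885 to 13722, and 1 of 5, Cdk1, fell. Blood markers differed between arrays without following position, from 44.1 in part 1 replicate 1 and 87.2 in part 6 replicate 1 to 9919 in part 1 replicate 2. In such bulk samples fewer cells of a type and less RNA per cell cannot be told apart. Part 1, although labelled neural tube, thus carried strong presomitic mesoderm signal and little neural progenitor signal. The part of these markers in the results was not tested.

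Chromatin genes passed the test for a trend along the tube about as often as genes at large. A straight line over part number, the slope, was fitted to log2 signal with limma and adjusted by Benjamini-Hochberg over all 12089 genes. Of the chromatin genes, 9 of 76 passed at an adjusted p under 0.05, which is 11.8%, against 12.7% of all genes tested. Toward part 6, 6 rose (7.89%, against 5.66% of all genes) and 3 fell (3.95%, against 7.08%). That balance rests on part 1: it was 4 up and 6 down without part 1 replicate 2, and 2 up and 4 down without both arrays of part 1. The median slope of the set was 0.0098 log2 per part, against -0.0073 over all genes, and the median absolute slope was 0.043 against 0.050. For 62 of the 76 (81.6%) the 95% interval of the slope lay within 0.2 log2 per part of 0, which over 5 steps is 1 log2 between the ends; the share over all genes was 71.5%. Of the 67 members that did not pass, 60 had such an interval, which bounds the straight-line change only; Kdm6b, among these, differed between the ends.

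**Figure D1:**
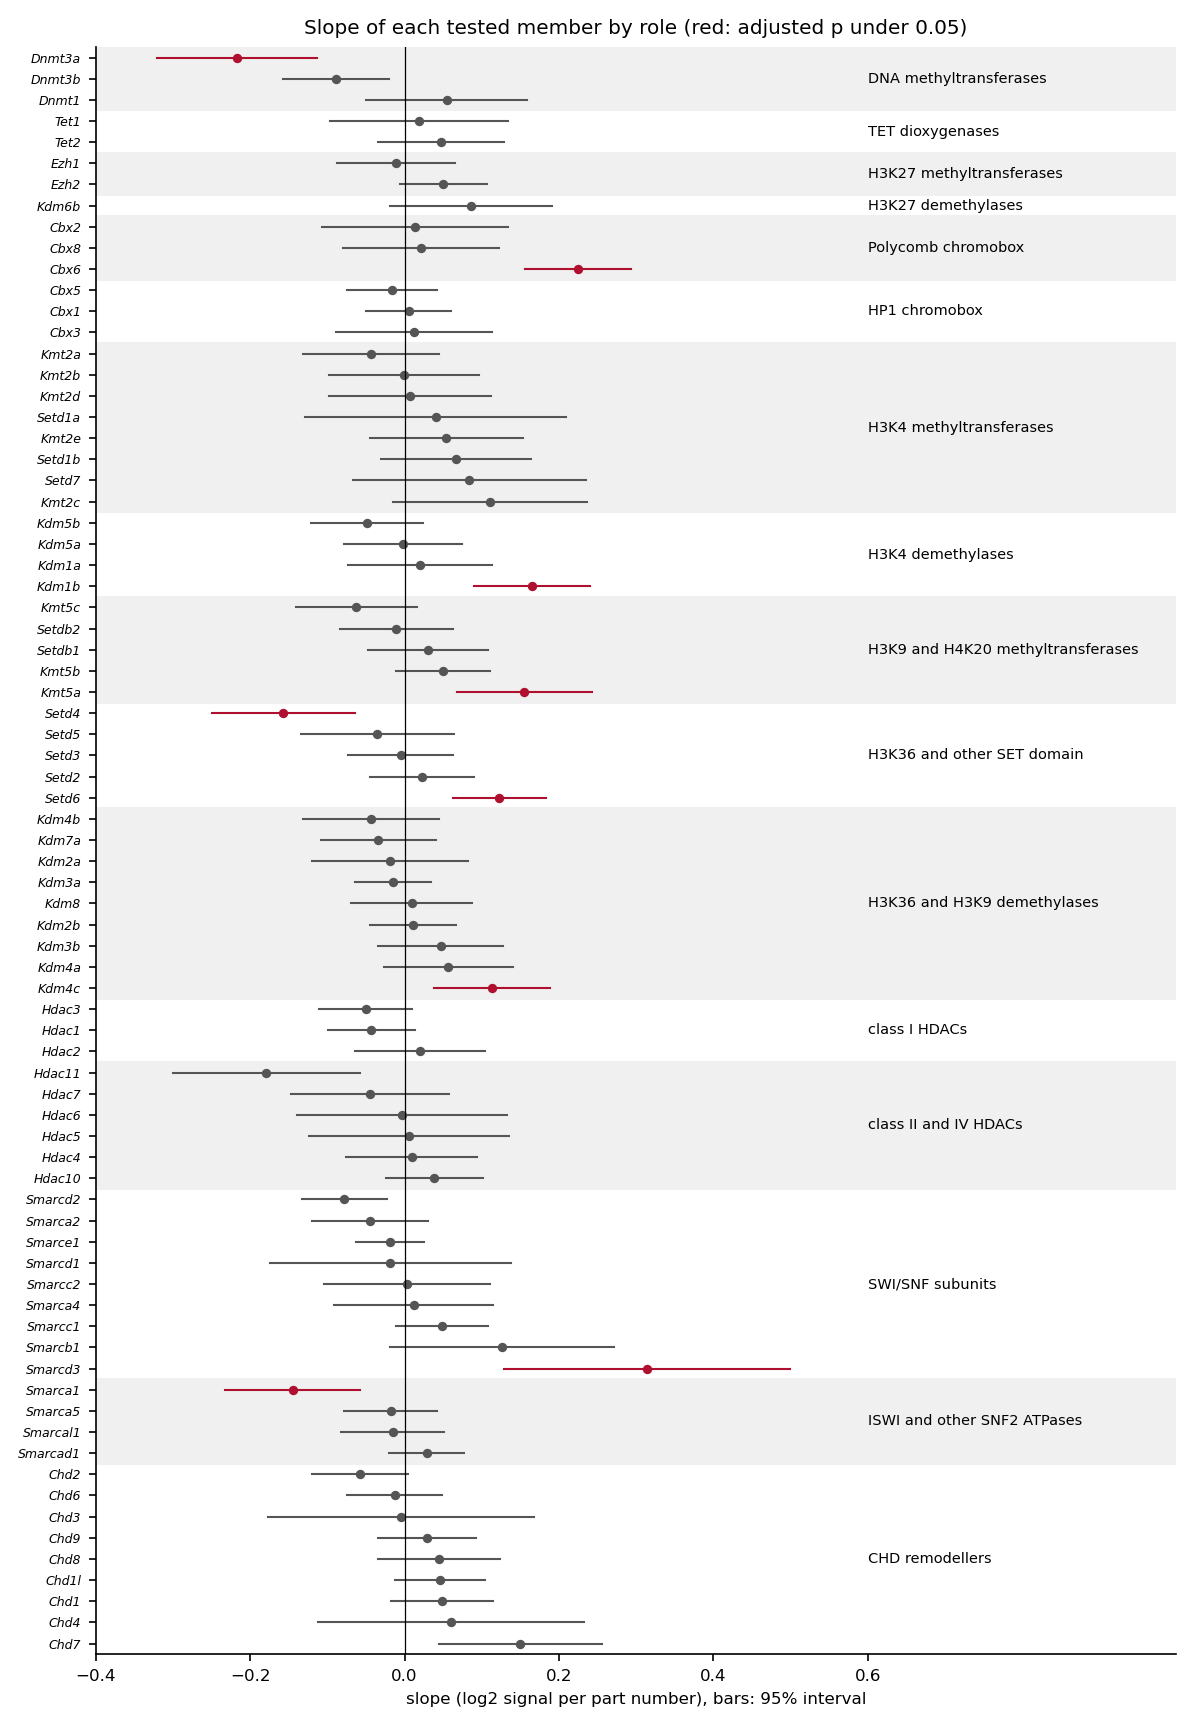
Slope of log2 signal over part number (x axis, log2 per part) with its 95% interval for the 76 tested chromatin genes, grouped by role, with genes called at an adjusted p under 0.05 marked. Most points sit near 0, with Cbx6, Smarcd3 and Kdm1b to the right and Dnmt3a to the left.

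Promoter sequence was read for the slope-called members that have a single listed start in RefSeq's promoter table (GRCm38.p6). Whether this sequence bears on their courses along the tube was not tested. Each run below is the 250 bases before the start, on the gene's own strand, with CG dinucleotides in capitals. Cbx6 is at chr15:79834334-79834583 (minus strand), Kdm1b at chr13:47043249-47043498 (plus), Setd6 at chr8:95715663-95715912 (plus), Setd4 at chr16:93603816-93604065 (minus), Smarcd3 at chr5:24602003-24602252 (minus) and Smarca1 at chrX:47892614-47892863 (minus).

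In order, 4 members that rose toward part 6 come first, then 2 that fell.
Cbx6: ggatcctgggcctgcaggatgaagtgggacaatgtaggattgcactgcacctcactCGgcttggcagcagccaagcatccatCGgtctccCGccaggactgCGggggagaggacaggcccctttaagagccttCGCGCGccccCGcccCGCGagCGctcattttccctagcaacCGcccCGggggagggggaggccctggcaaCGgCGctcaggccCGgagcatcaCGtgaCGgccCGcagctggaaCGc
Kdm1b: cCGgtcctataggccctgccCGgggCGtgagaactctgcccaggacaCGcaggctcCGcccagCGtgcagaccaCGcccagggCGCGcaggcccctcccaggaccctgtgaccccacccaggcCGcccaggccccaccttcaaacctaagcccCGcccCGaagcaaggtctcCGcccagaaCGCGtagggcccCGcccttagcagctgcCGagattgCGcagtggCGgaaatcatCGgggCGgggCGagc
Setd6: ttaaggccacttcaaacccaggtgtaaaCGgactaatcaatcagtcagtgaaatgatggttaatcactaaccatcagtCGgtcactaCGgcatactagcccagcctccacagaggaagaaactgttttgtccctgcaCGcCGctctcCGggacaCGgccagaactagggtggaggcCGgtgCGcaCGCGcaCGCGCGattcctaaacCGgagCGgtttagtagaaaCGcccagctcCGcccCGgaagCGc
Smarcd3: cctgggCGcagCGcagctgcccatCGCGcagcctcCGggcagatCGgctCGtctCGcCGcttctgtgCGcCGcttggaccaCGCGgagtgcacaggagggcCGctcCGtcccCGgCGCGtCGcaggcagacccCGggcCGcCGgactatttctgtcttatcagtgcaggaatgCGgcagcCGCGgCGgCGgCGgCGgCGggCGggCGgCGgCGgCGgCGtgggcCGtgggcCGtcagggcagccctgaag
Setd4: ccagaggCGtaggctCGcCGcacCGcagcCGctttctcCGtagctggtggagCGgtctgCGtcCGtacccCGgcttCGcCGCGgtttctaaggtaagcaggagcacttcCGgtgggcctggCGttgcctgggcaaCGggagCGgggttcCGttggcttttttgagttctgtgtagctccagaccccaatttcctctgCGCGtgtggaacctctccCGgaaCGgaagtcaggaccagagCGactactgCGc
Smarca1: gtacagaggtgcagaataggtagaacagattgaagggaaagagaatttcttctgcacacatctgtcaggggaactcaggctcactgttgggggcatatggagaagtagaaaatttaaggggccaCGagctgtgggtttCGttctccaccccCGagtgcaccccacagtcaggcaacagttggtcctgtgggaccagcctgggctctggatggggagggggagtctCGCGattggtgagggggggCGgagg

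All but Smarca1 are dense in CG. The windows hold 20 CG in Cbx6, 22 in Kdm1b, 20 in Setd6, 38 in Smarcd3 and 24 in Setd4, but 6 in Smarca1, which lies on the X chromosome. Over the 96 windows of the 68 members listed in the table the median was 20, against 6 over all 32851 windows, and median GC content was 63.6% against 52.4%. Rising and falling members are both found among the CG-rich windows. The GC box GGGCGG, searched on both strands and without regard to overlap with other motifs, was present in 64.6% of member windows and 32.7% of all windows, and in 11 of the 14 windows of slope-called members. TATAAA was in 3.12% of member windows against 12.4% of all and in 0 of the 14. CCAAT was at 35.4% against 33.8% and the E-box CANNTG at 57.3% against 66.2%. The TCF/LEF letters CTTTGA were at 5.21% against 13.8% and the nuclear receptor motif AGGTCA at 7.29% against 14.0%. These are matches of letters, not shown binding sites. The 14 windows of slope-called members include 3 each from Dnmt3a and Kmt5a and 2 from Kdm4c. The 32851 windows belong to 27025 genes, not only to the 12089 tested. A comparison with the windows of tested genes alone was not made. The gaps in CG, GC content and motifs are therefore not read as a trait of chromatin genes.

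Among the DNA methyltransferases, which copy or lay down cytosine methylation, the de novo enzyme Dnmt3a fell along the tube. Its signal was 603 and 827 in part 1, 827 and 847 in part 2, 546 and 816 in part 3, 447 and 581 in part 4, 325 and 440.4 in part 5 and 362 and 477 in part 6. Every array of parts 1 to 3 was above every array of part 5 and part 6, and the part means were lower at each step from part 2 to part 5. The slope was -0.22 ± 0.048 log2 per part (95% interval -0.32 to -0.11; limma adjusted p = 0.00901), and the part means went from 715 ± 158 (SD, n = 2) in part 1 to 419 ± 81.7 in part 6, a ratio of 0.587. In each part replicate 2 read above replicate 1. Comparing the ends alone, the difference was -0.76 ± 0.27 log2 and did not pass (adjusted p = 0.125); with the replicate number as a block it passed (adjusted p = 0.0196). The other 4 kept Dnmt3a probe sets also sloped down, at -0.26, -0.23, -0.17 and -0.25.

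Its partner de novo enzyme Dnmt3b read 1002 and 893 in part 1, 1184 and 1172 in part 2, 1011 and 1050.1 in part 3, 786 and 1042 in part 4, 874 and 833 in part 5 and 722 and 807 in part 6. The highest arrays were those of part 2 and the lowest was in part 6, but part 1 overlapped the later parts. The slope of -0.089 ± 0.032 lay just outside the threshold (adjusted p = 0.0873) and a second probe set sloped the same way (-0.12). The slope became -0.12 when part 1 replicate 2 was left out. It was -0.15 without both arrays of part 1 (adjusted p = 0.012) and -0.10 with its probe sets averaged (adjusted p = 0.0476). In all, the slope passed in 3 of 23 alternative settings. Dnmt1, which maintains methylation through replication, read 1023 and 529.9 in part 1, 1081 and 841 in part 2, 1172 and 822 in part 3, 1113 and 939.5 in part 4, 1069.5 and 876 in part 5 and 1038 and 859.9 in part 6; the single low value in part 1 replicate 2 stands out, replicate 1 was the higher in each part, and the slope of 0.055 ± 0.049 did not pass (adjusted p = 0.526). Dnmt3l, the catalytically inactive cofactor of the de novo enzymes, was not tested, its highest signal being 12.1.

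The TET dioxygenases did not pass. Tet1 ranged over 71.0 to 159.7, median 129, with a slope of 0.019 ± 0.053 (adjusted p = 0.862), and its other kept probe sets included slopes of opposite sign, -0.048 and -0.12. Tet2 ranged over 22.3 to 44.7, median 36.4, with a slope of 0.047 ± 0.038 (adjusted p = 0.472). Both were lowest on part 1 replicate 2. Tet3 stayed at or under 19.1 and was not tested. In a list of other DNA methylation genes, 2 of 8 rose and none fell, against 5.66% and 7.08% of all genes: Gadd45a (0.38 ± 0.061 log2 per part, adjusted p = 0.00106) and Gadd45g (0.49 ± 0.12, adjusted p = 0.0153), stress-response genes also linked to active demethylation.

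Within the Polycomb system, the chromobox gene Cbx6 had the smallest slope p of the set, while the main catalytic subunit did not pass. Cbx6, a reader of methylated H3K27 in PRC1, gave 109 and 100.4 in part 1, 112 and 114 in part 2, 168 and 137 in part 3, 167 and 182 in part 4, 172 and 207 in part 5 and 283 and 188 in part 6. No array of parts 1 and 2 reached any array of parts 3 to 6, so the 2 ends are well apart. The slope was 0.22 ± 0.032 log2 per part (95% interval 0.16 to 0.29; adjusted p = 0.000411) and part 6 exceeded part 1 by 1.11 ± 0.22 log2 (adjusted p = 0.0123), from 105 ± 6.39 to 236 ± 67.1 (SD, n = 2), a ratio of 2.25. Without part 6 replicate 1, its brightest array, the end difference was 0.82 (adjusted p = 0.0841) and the slope 0.20 (adjusted p = 0.00214). A second, kept probe set of Cbx6 rose less, with a slope of 0.056 and an end difference of 0.36 log2.

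Cbx2, another PRC1 reader, ranged over 157 to 404, median 309; both its extremes were in part 1, and its slope was 0.014 ± 0.056 (adjusted p = 0.908). Cbx8 was low, 19.2 to 46.1, median 32.4, with a slope of 0.021 ± 0.047 (adjusted p = 0.825), and Cbx7 was not tested. Ezh2, the main H3K27 methyltransferase, read 1899 and 1878 in part 1, 1972 and 1992 in part 2, 2309 and 2125 in part 3, 2423 and 1934 in part 4, 2021 and 2449 in part 5 and 2082 and 2455 in part 6, all within a narrow band. Its slope of 0.050 ± 0.026 (95% interval -0.0057 to 0.11; adjusted p = 0.242) did not pass. Ezh1, its less active paralog, ranged over 67.1 to 122, median 90.2 with the smallest spread of part means in the set, 0.064 log2, and a slope of -0.011 ± 0.035 (adjusted p = 0.876).

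The other Polycomb genes were counted from a list of their complexes. Against 12.7% of all genes, 0 of 9 PRC2 partners passed by slope, and among 13 PRC1 partners 3 rose and 1 fell. The F test called 1 PRC2 partner and 2 PRC1 partners, against 4.91% of all genes. Between the ends 1 PRC2 and 3 PRC1 partners were higher in part 6 and 1 PRC1 partner lower, against 9.09% of all genes. The PRC2 calls were Jarid2 by the F test (adjusted p = 0.0366) and Aebp2 between the ends (0.79 log2, adjusted p = 0.0255). Jarid2 read 1019 and 939 in part 1, 1976 and 1434 in part 3 and 701 and 515 in part 6. The lists were not tested against each other. Bmi1, a PCGF subunit of PRC1, read 217 and 287 in part 1, 340.4 and 304 in part 2, 337 and 366 in part 3, 486 and 342 in part 4, 567 and 536 in part 5 and 726 and 578 in part 6, and every array of part 6 was above every other array. Its slope was 0.27 ± 0.033 (adjusted p = 0.00013). Pcgf5 (0.20 ± 0.039, adjusted p = 0.00481), an alternative PCGF subunit, and Phc2 (0.15 ± 0.034, adjusted p = 0.00979), a polyhomeotic subunit, also rose, while Scmh1, a PRC1-associated protein, fell (-0.18 ± 0.034, adjusted p = 0.0034).

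The H3K27 demethylase Kdm6b, which removes the Polycomb mark, was low in part 1 only. Its signal was 459 and 361 in part 1, 784 and 725 in part 2, 768 and 637 in part 3, 785 and 693 in part 4, 635 and 656 in part 5 and 694 and 657 in part 6. Both part 1 arrays lie under all the others, which stay between 635 and 785. Part 6 exceeded part 1 by 0.72 ± 0.18 log2 (adjusted p = 0.0351), 410.1 ± 68.9 against 676 ± 26.3, while the slope of 0.087 ± 0.049 did not pass (adjusted p = 0.288). The step from part 1 to part 2 was 0.88 ± 0.18 log2 (adjusted p = 0.112). Leaving out part 1 replicate 2 gave an end difference of 0.55 (adjusted p = 0.0991), and removing any single one of 9 arrays ended the call (adjusted p = 0.0529 to 0.161). Its other kept probe sets gave end differences of 0.14 and 1.04.

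For the ends, part 6 against part 1, 7 of 76 members passed (9.21%, against 9.09% of all genes). There, 6 were higher in part 6 (Cbx6, Chd7, Kdm1b, Smarcb1, Kmt5a and Kdm6b) and 1, Smarca1, was lower. Of all genes, 4.17% were higher and 4.92% lower. With the replicate number as a block 9 members passed, Dnmt3a and Setd4 being added.

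**Figure D2:**
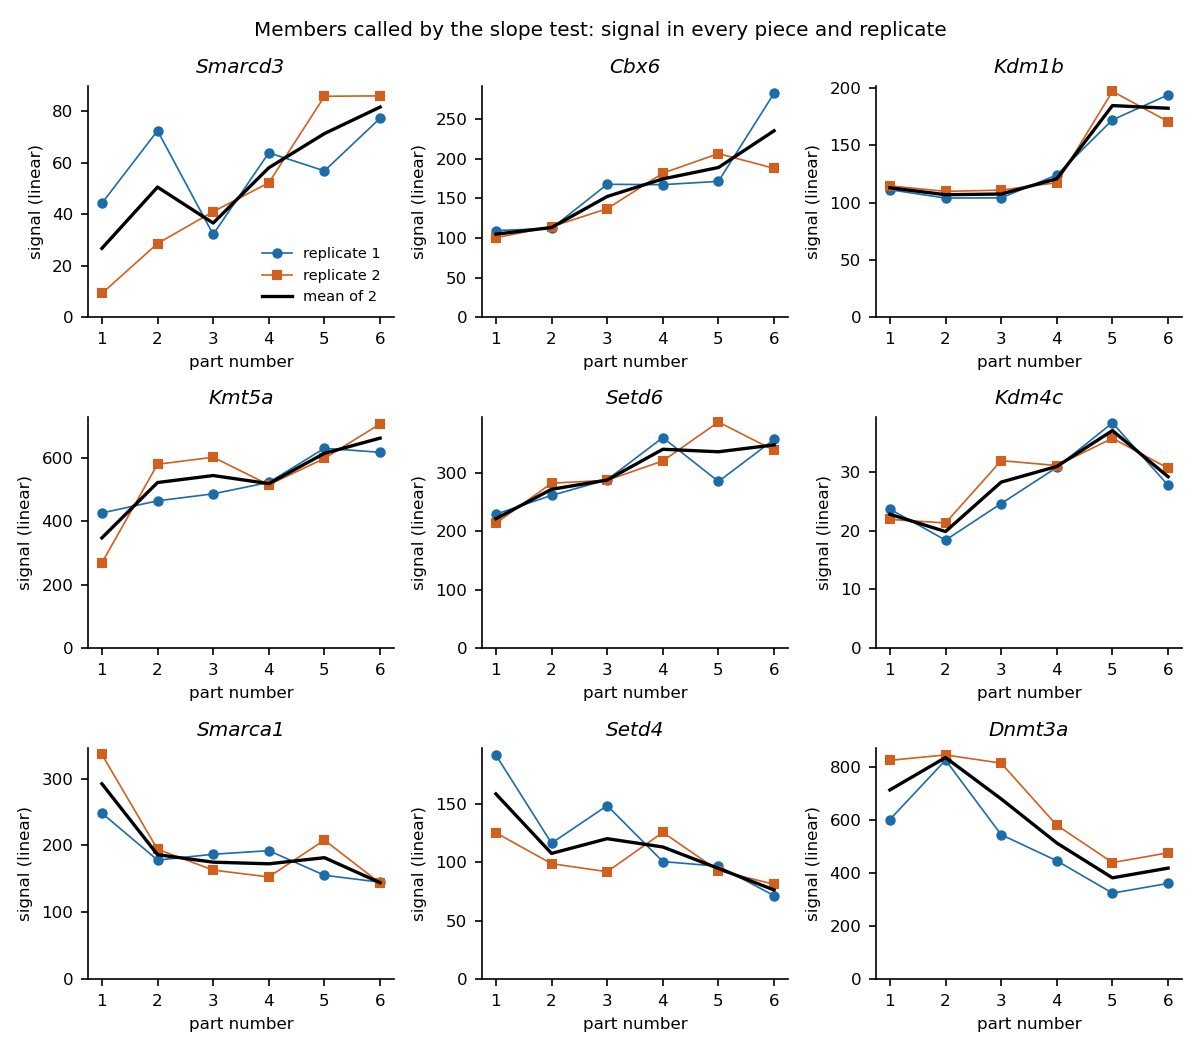
Signal (y axis, linear MAS5 signal) against part number (x axis) for the 9 chromatin genes called by slope, 1 point per array with the part means joined. Cbx6, Kdm1b, Setd6, Kmt5a, Smarcd3 and Kdm4c rise toward part 6, while Dnmt3a, Setd4 and Smarca1 fall.

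Among the H3K4 demethylases, which remove an activating mark, Kdm1b rose and the other 3 did not pass (25% passed by slope, against 12.7% of all genes). Kdm1b, the flavin-dependent demethylase also known as LSD2, read 111 and 115 in part 1, 104 and 109.8 in part 2, 104 and 111 in part 3, 124 and 117 in part 4, 172 and 197 in part 5 and 194 and 171 in part 6. Parts 1 to 4 formed one level and parts 5 and 6 another, with no overlap. The slope was 0.17 ± 0.035 (adjusted p = 0.00652), the end difference 0.67 ± 0.16 log2 (adjusted p = 0.0267; 0.0859 and 0.163 on leaving out a part 6 array), and the mean went from 113 ± 2.37 to 182 ± 16.5, a ratio of 1.62. Kdm1b also passed the F test for any difference among the 6 parts (F = 10.9, adjusted p = 0.0291), a call that held in 11 of 23 alternative settings. That test called 2 of 76 members (2.63%, against 4.91% of all genes), and with the replicate number as a block it called 4, adding Dnmt3a and Kdm6b. The step from part 4 to part 5 was 0.59 ± 0.16 log2 (adjusted p = 0.738). Kdm1a, its paralog in the CoREST repressor complex, ranged over 895 to 1686, median 1355, with a slope of 0.020 ± 0.043 (adjusted p = 0.821). Kdm5a (-0.0022 ± 0.035, adjusted p = 0.981) and Kdm5b (-0.049 ± 0.034, adjusted p = 0.392), JmjC demethylases of the same mark, did not pass. From part 1 to part 6 the part means of Kdm5b were 566, 777, 665, 595, 575 and 546, lower at each step from part 2. Without both arrays of part 1, Kdm5b passed with a slope of -0.12 (adjusted p = 0.0385). The other kept Kdm5b probe sets sloped down too, at -0.024, -0.076 and -0.13.

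None of the 8 H3K4 methyltransferases passed by slope, by the F test or between the ends. Over all genes 12.7%, 4.91% and 9.09% passed these tests, in that order. Their slopes ran from -0.043 in Kmt2a to 0.11 in Kmt2c, both catalytic subunits of COMPASS-type complexes. Kmt2c read 169 and 87.3 in part 1, 186 and 131 in part 2, 217 and 163 in part 3, 229 and 131 in part 4, 207 and 216 in part 5 and 223 and 144 in part 6, replicate 2 being the lower in 5 of 6 parts. Its slope was 0.11 ± 0.058 (adjusted p = 0.253). Setd1b (0.067 ± 0.045, adjusted p = 0.381), Setd7 (0.084 ± 0.070, adjusted p = 0.492) and Kmt2e (0.054 ± 0.046, adjusted p = 0.501) had the next smallest p. All 8 were lowest on part 1 replicate 2. Without that array Kmt2a fell, with a slope of -0.10 and an adjusted p of 0.00969. Of 11 COMPASS partner genes none passed.

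Of the 5 enzymes grouped as H3K9 and H4K20 methyltransferases, Kmt5a rose (20% passed by slope, against 12.7% of all genes). Kmt5a, which monomethylates H4K20 and is tied to the cell cycle, read 426 and 269 in part 1, 465 and 580.0 in part 2, 487 and 602 in part 3, 523 and 515 in part 4, 630.4 and 599 in part 5 and 618 and 707 in part 6. Part 1 was lowest, part 6 had the highest mean, and the middle parts overlapped. The slope was 0.16 ± 0.040 (adjusted p = 0.0226) and the end difference 0.96 ± 0.23 log2 (adjusted p = 0.0335), from 348 ± 111 to 662 ± 63.3. Without part 1 replicate 2 the slope was 0.10 (adjusted p = 0.0415) and the end difference 0.63 (adjusted p = 0.104). A second probe set rose less, with a slope of 0.067 and an end difference of 0.38. Averaging both sets ended the calls (slope 0.11, adjusted p = 0.0532, and ends 0.67, adjusted p = 0.108). Leaving out both arrays of part 1, or both of part 6, ended the slope call. The slope call also ended without part 6 replicate 2 (adjusted p = 0.0638), and the end call with the removal of any one of 7 arrays (adjusted p = 0.0539 to 0.194). Kmt5b (0.050 ± 0.028, adjusted p = 0.292) and Kmt5c (-0.062 ± 0.037, adjusted p = 0.308), which extend H4K20 methylation, and the H3K9 methyltransferases Setdb1 (0.030 ± 0.036, adjusted p = 0.651) and Setdb2 (-0.011 ± 0.034, adjusted p = 0.878) did not pass. Kmt5c fell when part 1 replicate 2 was left out (-0.11, adjusted p = 0.0293).

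The remaining SET-domain genes moved in both directions. Setd6, a lysine methyltransferase best known for non-histone substrates, read 229 and 214 in part 1, 261 and 282 in part 2, 288 and 287 in part 3, 360.0 and 320.0 in part 4, 285 and 387 in part 5 and 357 and 338 in part 6. Both part 1 arrays lay under all others, and every array of part 6 was above those of parts 1 to 3. Its slope was 0.12 ± 0.028 (adjusted p = 0.0109), a call that was lost without both arrays of part 1 (adjusted p = 0.151). The end difference of 0.64 ± 0.18 log2 did not pass (adjusted p = 0.0573). Setd4 read 192 and 125 in part 1, 116 and 98.9 in part 2, 149 and 92.0 in part 3, 101 and 126 in part 4, 96.7 and 92.9 in part 5 and 71.5 and 81.2 in part 6. Both part 6 arrays were the lowest, and part 1 replicate 1 was the highest. Its slope was -0.16 ± 0.043 (adjusted p = 0.0296), and the end difference of -0.99 ± 0.27 log2 missed the threshold (adjusted p = 0.051) but passed with the replicate block (adjusted p = 0.0389). Without both arrays of part 1 its slope was -0.12 (adjusted p = 0.20). The Setd4 slope call was also lost on leaving out any 1 of part 1 replicate 1, part 5 replicate 2, part 6 replicate 1 and part 6 replicate 2 (adjusted p = 0.0511 to 0.11). Second probe sets sloped less, at 0.059 in Setd6 and at -0.098 and -0.026 in Setd4, and averaging the sets ended both slope calls, at 0.091 (adjusted p = 0.0614) in Setd6 and -0.094 (adjusted p = 0.0833) in Setd4. Setd2, the main H3K36 methyltransferase, had a slope of 0.023 ± 0.031 (adjusted p = 0.711), Setd5 one of -0.035 ± 0.046 (adjusted p = 0.685) and Setd3, an actin histidine methyltransferase, one of -0.0049 ± 0.032 (adjusted p = 0.946).

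Among 9 demethylases of H3K36 and H3K9, 1 passed by slope (11.1%, against 12.7% of all genes). Kdm4c, which acts on both marks, was dim and sat just inside the threshold: it read 23.7 and 21.9 in part 1, 18.4 and 21.3 in part 2, 24.6 and 31.9 in part 3, 30.8 and 31.1 in part 4, 38.4 and 35.8 in part 5 and 27.8 and 30.7 in part 6. No array of parts 1 and 2 was above 23.7, and both arrays of part 5 were the highest. The slope was 0.11 ± 0.035 (adjusted p = 0.0489), a call that was lost without both arrays of part 1. For 10 of the 12 arrays, removing that array ended the call (adjusted p = 0.062 to 0.0973; 0.0814 without part 1 replicate 2). Kdm4a (0.056 ± 0.039), Kdm3b (0.047 ± 0.037) and Kdm4b (-0.044 ± 0.041) had adjusted p of 0.394, 0.472 and 0.544. Kdm3a, an H3K9 demethylase, was among the steadiest of all, 479.7 to 594, median 532, with part means spanning 0.11 log2, and Kdm2b, which recruits PRC1 to CpG islands, ranged over 1247 to 1644, median 1429.

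The histone deacetylases, which remove acetyl groups and favour silencing, had no member past the slope threshold, which 12.7% of all genes passed. The class I enzymes Hdac1 (765 to 1033, median 872), Hdac2 (780.3 to 1385, median 1204) and Hdac3 (367 to 565, median 421) had slopes of -0.043 ± 0.026, 0.020 ± 0.039 and -0.050 ± 0.028, with adjusted p of 0.324, 0.798 and 0.283. Hdac11, the class IV enzyme, lay just outside the threshold. It read 204 and 98.0 in part 1, 134 and 68.2 in part 2, 101 and 86.3 in part 3, 82.7 and 95.9 in part 4, 90.5 and 82.5 in part 5 and 54.8 and 68.3 in part 6. In replicate 1 the signal went from the highest of the 12 arrays in part 1 to the lowest in part 6, while replicate 2 stayed between 68.2 and 98.0. The slope was -0.18 ± 0.056 (adjusted p = 0.0534), and with the replicate number as a block it passed (adjusted p = 0.0377). A second probe set also sloped down (-0.14). The difference between the slopes of the 2 replicates, 0.27 ± 0.073, did not pass (adjusted p = 0.74). Hdac10 (0.039 ± 0.029, adjusted p = 0.442), Hdac7 (-0.045 ± 0.047, adjusted p = 0.603) and Hdac4 (0.0092 ± 0.040, adjusted p = 0.913) had slopes closer to 0.

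HP1 proteins, the chromobox readers of H3K9 methylation, did not pass, and all 3 had slope intervals within 0.2 log2 per part, as did 71.5% of all genes. Cbx1 ranged over 1295 to 1733, median 1435, with a slope of 0.0055 ± 0.026, Cbx5 over 438 to 597, median 491 with -0.016 ± 0.027, and the dim probe set of Cbx3 over 12.9 to 29.0, median 21.6 with 0.012 ± 0.047. Their adjusted p were 0.919, 0.766 and 0.901. In corepressor and acetylation lists, Sin3b, a Sin3 scaffold, fell (-0.12 ± 0.032, adjusted p = 0.0312; 1 of 12 NuRD and Sin3 genes), the acetyltransferase Kat2b rose (0.18 ± 0.036, adjusted p = 0.00493; 1 of 10), and the deacetylase Sirt1 rose (0.10 ± 0.031, adjusted p = 0.043; 1 of 7 sirtuins). The Sin3b call held in 14 and the Sirt1 call in 10 of 23 alternative settings. Over all genes, 12.7% passed by slope.

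In the SWI/SNF complex, 1 subunit of 9 rose along the tube (11.1% passed by slope, against 12.7% of all genes). Smarcd3, the BAF60C subunit known from heart and neural development, read 44.2 and 9.18 in part 1, 72.4 and 28.6 in part 2, 32.1 and 40.9 in part 3, 63.8 and 52.2 in part 4, 56.8 and 85.7 in part 5 and 77.2 and 85.9 in part 6. The 2 part 1 arrays differ widely, and part 6 is high in both replicates. The slope was 0.31 ± 0.086 (95% interval 0.13 to 0.50; adjusted p = 0.0292), the largest in the set; the end difference of 1.74 ± 0.55 log2 did not pass (adjusted p = 0.0882), with part means of 26.7 ± 24.8 and 81.6 ± 6.14. Without part 1 replicate 2 the slope was 0.20 (adjusted p = 0.0779), and the call was also lost without part 2 replicate 2, part 5 replicate 2 or either part 6 array (adjusted p from 0.0505). Leaving out both arrays of part 1, or both of part 6, also ended the call. The slope was 0.10 in replicate 1 and 0.52 in replicate 2, and their difference of 0.42 ± 0.12 did not pass (adjusted p = 0.747). Of its paralogs in the same position of the complex, Smarcd2 sloped the other way just outside the threshold (-0.078 ± 0.025, adjusted p = 0.0629; 909.8 to 1295, median 1064) and Smarcd1 had a slope of -0.018 ± 0.072 (adjusted p = 0.904; 58.7 to 199, median 121).

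Smarcb1, a core subunit, was low in part 1: 443 and 341 in part 1, 937 and 764 in part 2, 1043 and 854 in part 3, 754 and 1065 in part 4, 759 and 842 in part 5 and 759 and 744 in part 6. Neither part 1 array reached any other array. Part 6 exceeded part 1 by 0.94 ± 0.22 log2 (adjusted p = 0.0291), 392 ± 72.5 against 752 ± 10.9, and the step to part 2 was 1.11 ± 0.22 (adjusted p = 0.108). The probe set carries the x suffix of sets that can bind related transcripts, and a second set of Smarcb1 did not show the difference (-0.12 log2 between the ends). Averaging the probe sets gave 0.41 (adjusted p = 0.242), and leaving out part 1 replicate 2 gave 0.76 (adjusted p = 0.104); the call was also lost without either part 6 array (adjusted p up to 0.135). The ATPases Smarca4 (798 to 1735, median 1349; slope 0.012 ± 0.048, adjusted p = 0.904) and Smarca2 (32.1 to 54.9, median 38.3; -0.044 ± 0.035, adjusted p = 0.462) and the scaffold Smarcc1 (2653 to 3861, median 3359.9; 0.048 ± 0.028, adjusted p = 0.299) did not pass. Smarce1, a DNA-binding subunit, ranged over 1519 to 1747, median 1663. Of 17 other SWI/SNF genes, 2 fell and none rose by slope (11.8%, against 12.7% of all genes passing). These were the zinc finger subunits Bcl11a (limma adjusted p = 0.00163) and Bcl11b (adjusted p = 0.00945). Both were above the array median on 3 arrays, all in parts 1 and 2, so they entered the test only through the parts where they are high and the size of their fall is not resolved. Bcl11a read 42.2 and 24.4 in part 1 and 1.36 and 4.02 in part 6.

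Among ISWI and other SNF2 ATPases, Smarca1 fell and its close paralog did not pass. Smarca1, the SNF2L ATPase linked to neuronal differentiation, read 249 and 336 in part 1, 178 and 194 in part 2, 187 and 163 in part 3, 192 and 153 in part 4, 155 and 208 in part 5 and 145 and 144 in part 6. Both part 1 arrays were above all others, and both part 6 arrays were the lowest 2 of the 12. The slope was -0.14 ± 0.041 (adjusted p = 0.0326) and the end difference -0.98 ± 0.22 log2 (adjusted p = 0.0211), from 292 ± 62.1 to 144 ± 1.07. Neither passed without part 1 replicate 2 (slope -0.099, adjusted p = 0.0891; ends -0.77, adjusted p = 0.0776). Without both arrays of part 1 the slope was -0.067 (adjusted p = 0.378). The slope call was also lost without part 1 replicate 1, part 5 replicate 1 or either part 6 array, with adjusted p of 0.0581 to 0.0891 over these arrays and part 1 replicate 2. The end call was lost without part 6 replicate 1 (adjusted p = 0.0931) or replicate 2 (adjusted p = 0.118). Smarca5, the SNF2H ATPase of proliferating cells, ranged over 1496 to 2005, median 1660.4, with a slope of -0.018 ± 0.028 (adjusted p = 0.747), and 3 other probe sets of it had slopes of 0.045, 0.12 and 0.010. Smarcad1 (0.029 ± 0.023) and Smarcal1 (-0.015 ± 0.031) had adjusted p of 0.462 and 0.807. Of 12 ISWI and INO80 partners, Baz1a (0.14 ± 0.033, adjusted p = 0.0125) and Baz2b (0.10 ± 0.030, adjusted p = 0.0358), bromodomain subunits of ISWI complexes, rose (16.7% passed by slope, against 12.7% of all genes). The calls held in 20 and 14 of 23 alternative settings.

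None of the 9 CHD remodellers passed by slope, against 12.7% of all genes, but Chd7 differed between the ends and Chd3 among the parts. Chd7, which is mutated in CHARGE syndrome and acts in neural crest and neural progenitors, read 409.9 and 285 in part 1, 576 and 639 in part 2, 592 and 737 in part 3, 613 and 664 in part 4, 554 and 682 in part 5 and 637 and 796 in part 6. Both part 1 arrays were under all others. Part 6 exceeded part 1 by 1.05 ± 0.23 log2 (adjusted p = 0.0191), 348 ± 88.2 against 717 ± 113, a ratio of 2.06; the slope of 0.15 ± 0.049 had an adjusted p of 0.0623. A second probe set gave an end difference of 1.01. Without part 1 replicate 2 the end difference was 0.79 (adjusted p = 0.0699), and without part 6 replicate 2 the adjusted p was 0.147.

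Chd3, an ATPase of the NuRD repressor complex, was highest in the middle parts: 315 and 215 in part 1, 431 and 578 in part 2, 651 and 598 in part 3, 613 and 494 in part 4, 382 and 398 in part 5 and 332 and 276 in part 6. Every array of parts 2 to 4 was above every array of parts 1, 5 and 6. The F test passed (F = 9.07, adjusted p = 0.0464), whereas the slope (-0.0046 ± 0.080, adjusted p = 0.982) and the ends (0.21 ± 0.23, adjusted p = 0.643) did not; the call held in 8 of 23 alternative settings. Its paralog Chd4 read 300.0 and 314 in part 1, 465 and 743 in part 2, 405 and 748 in part 3, 400.3 and 602 in part 4, 357 and 309 in part 5 and 445 and 796 in part 6. Replicate 2 was the higher in 5 of 6 parts, and the difference between replicates of 0.47 ± 0.16 log2 did not pass (adjusted p = 0.164). Chd2 (-0.057 ± 0.029, adjusted p = 0.23), Chd1l (0.046 ± 0.027, adjusted p = 0.317), a DNA repair remodeller, and Chd1 (0.049 ± 0.030, adjusted p = 0.343), which binds methylated H3K4, had slopes near 0.

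**Figure D3:**
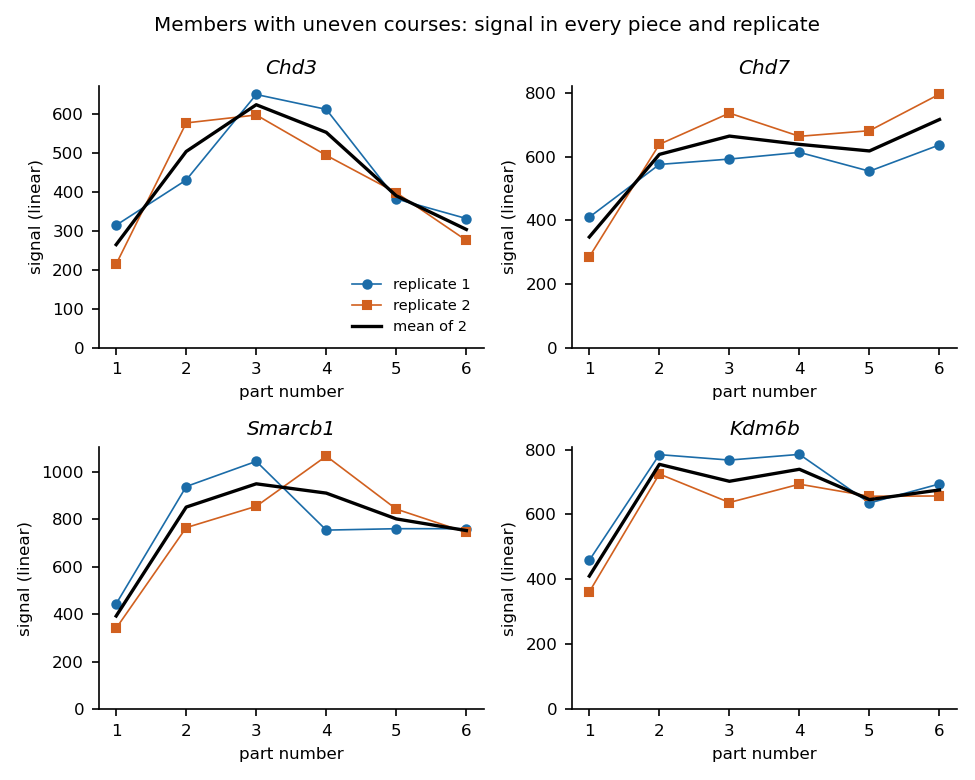
Signal (y axis, MAS5 signal) against part number (x axis) of Chd3, Chd7, Smarcb1 and Kdm6b, 1 point per array with the part means joined. All 4 have their lowest mean in part 1, and Chd3 falls back after part 4.

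No member passed at any single step between neighbouring parts. From part 1 to part 2, 0.248% of all genes and none of the 76 members passed, though 11 members had an unadjusted p under 0.05, with a lowest adjusted p of 0.108. From part 2 to part 3 the share of all genes was 0.19%, with 1 member at an unadjusted p under 0.05, and at each later step 0.00827%, with 2, 1 and 0 members. Part means of a member spanned a median of 0.44 log2, against 0.49 over all genes, and the SD within a part was 0.22 against 0.25. A span over 1 log2 was found in 8 members (10.5%; all genes 16.3%), widest in Smarcd3 at 1.74, then Smarcb1 at 1.27, Chd3 at 1.25, Hdac11 at 1.15 and Dnmt3a at 1.14.

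One array stood apart for this gene set. Part 1 replicate 2 was the lowest of the 12 arrays for 41 of the 76 members (53.9%), against 21.4% of all genes, and for 60 of 76 it read below part 1 replicate 1 (78.9%, against 56.6%). The median member lay 0.38 log2 under the other part 1 array, against 0.089 for all genes. Setd1a went from 360.2 in replicate 1 to 92.5 in replicate 2, Smarcd1 from 199 to 58.7, Kmt2d from 317 to 133 and Smarca4 from 1735 to 798. The shift was not shared by every group: it was the lowest array for 8 of 8 H3K4 methyltransferases and 6 of 9 SWI/SNF subunits, but for none of 3 class I deacetylases and none of 3 HP1 genes. Hdac2 went the other way, from 780.3 to 1341, as did Dnmt3a. On that array the actin control's 3′ to 5′ signal ratio was 16.05, the highest of the 12 (the others 5.24 to 14.7), while the Gapdh ratio of 8.50 was below those of part 1 replicate 1 (9.39) and part 3 replicate 1 (9.17), and the blood marker sum was also the highest. The part of RNA quality or blood in these values was not tested. Without the array, 10 members passed by slope, 4 up and 6 down, of which 6 had passed with all arrays (Cbx6, Kdm1b, Kmt5a, Setd6, Dnmt3a and Setd4); Dnmt3b, Hdac11, Kmt2a and Kmt5c were added, and 4 passed between the ends.

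**Figure D4:**
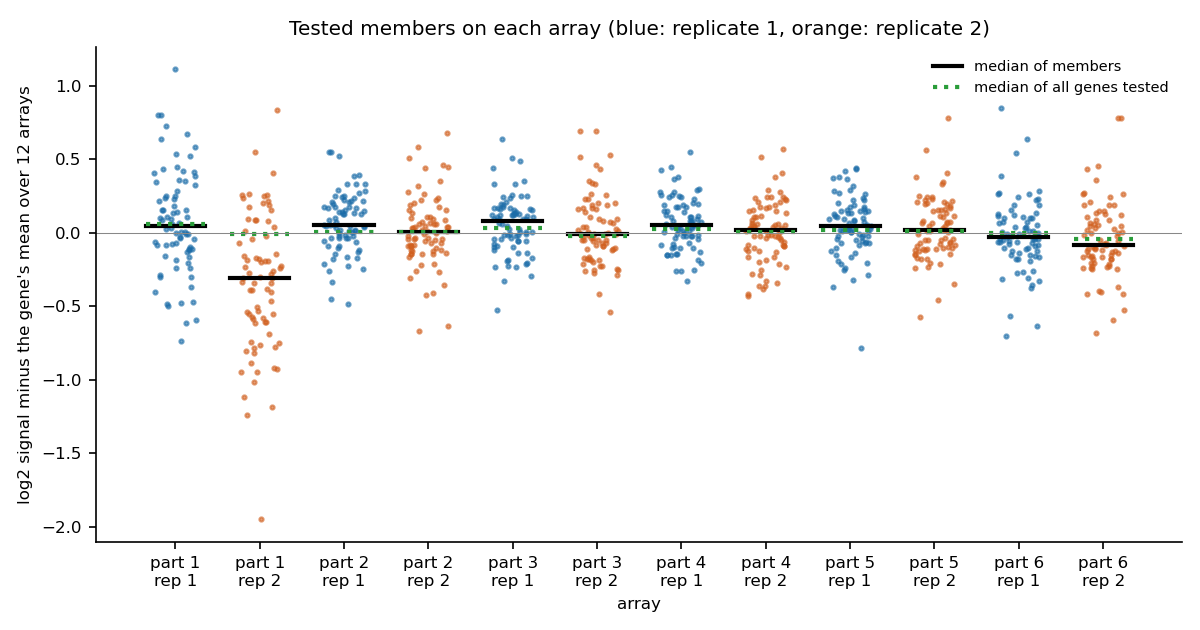
Difference of each tested chromatin gene from its own mean over the 12 arrays (log2 signal), by array. The part 1 replicate 2 array lies lowest, with a median of -0.31 log2.

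Between the 2 replicates, with part as a factor, no member passed, against 1.63% of all genes; 14 members had an unadjusted p under 0.05. The smallest adjusted p were 0.0924 in Dnmt3a (0.38 ± 0.095 log2, higher in replicate 2), 0.0926 in Kmt2c (-0.53 ± 0.13) and 0.0986 in Dnmt1 (-0.44 ± 0.11). The difference of slopes between replicates passed for no gene of all 12089 by limma, and 7 members had an unadjusted p under 0.05.

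Other writers and erasers outside the symbol rule were counted from the same kind of list, 121 genes in all, of which 12 rose and 5 fell by slope (14.0%, against 12.7% of all genes). These calls include Bcl11a, Bcl11b and Prmt8, which entered the test only through the parts where they are high, so the share is not read as above that of all genes. Besides those given above, the lysine methyltransferase genes Mecom (0.32 ± 0.063, adjusted p = 0.00431) and Prdm2 (0.11 ± 0.033, adjusted p = 0.0498) rose and Smyd2 fell (-0.24 ± 0.042, adjusted p = 0.00191), 3 of 13. The Prdm2 call held in 8 of 23 alternative settings, and its slope turned to -0.0085 when its probe sets were averaged. The brain-enriched arginine methyltransferase Prmt8 read 1.68 and 3.79 in part 1, 6.68 and 1.29 in part 2, 1.06 and 3.99 in part 3, 5.96 and 12.4 in part 4, 27.5 and 30.6 in part 5 and 36.7 and 32.6 in part 6, all under the array medians in parts 1 to 4. It entered the test only through parts 5 and 6, where it is high, so its rise (adjusted p = 0.00071), the single call among 9 genes of its list, has no resolved size.

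Where a gene had more than 1 usable probe set, the courses could be compared. Of 86 further kept probe sets, 25, in 16 genes, sloped opposite to the one used: sets of Cbx1, Chd8, Hdac7, Kdm2a, Kdm2b, Kdm5a, Kdm6b, Kmt5b, Setd3, Setd5, Smarca5, Smarcad1, Smarcb1, Smarcc1, Smarce1 and Tet1. In none of these 25 did both slopes exceed 0.05 log2 per part in size. For the members called by slope, 9 of 9 further probe sets sloped the same way as the first, but averaging the sets ended the slope calls of Kmt5a, Setd4 and Setd6 and the end call of Kmt5a. Kdm1b, Smarcd3, Smarca1 and Kdm4c have no second set.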

How the data were processed

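The authors deposited 1 linear MAS5 signal intensity per probe set and array for 12 arrays of 45101 probe sets. The submitters' processing notes name MAS5; no label or header gives its settings. On each array the mean after trimming 2% at either end is 100, and no further scaling was applied. Probe sets were named through the platform annotation where it gives 1 gene (34945; 932 give several), and symbols were updated by Entrez identifier. After removal of 64 controls, probe sets above their array's median on at least 2 arrays were kept (21679), and the brightest stood for its gene (12089 genes). The log2 values carry an added 4.43, a share of 0.25 of the overall median, so changes of dim genes are understated. limma 3.58.1 in R 4.3.3 (lmFit, eBayes) tested slope over part number, any difference among parts, part 6 against part 1, neighbouring parts, and replicates. The p-values were adjusted by Benjamini-Hochberg over all genes, with a threshold of 0.05. On simulated data, the slope test recovered 8% of 100 genes given a slope of 0.1 log2 per part. With a slope of 0.2 it recovered 61% of 100, and there were 3 false calls at each size. A slope of 0.1 was thus mostly missed. Fold ratios are of mean signals. Errors are SDs of 2 arrays or limma standard errors, and the number of arrays limits precision.

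Same-numbered arrays deviated together in all 15 pairs of parts (r = 0.18 to 0.34, median 0.23), but the labels do not say that a number marks an embryo. Pairing by replicate number was therefore used only where a replicate block is named. Without the block, the tests of slope, parts, ends and neighbouring parts treated the arrays as independent. Their p-values do not account for this shared deviation. The members and lists were chosen with earlier results of these data known. Named are all called members, up to 4 further members per role with the smallest p, those beside the threshold, those whose probe sets disagree in sign, and called list genes, up to 4 per list.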

Additional observations from a re-analysis of the deposited data

How the results depend on the processing

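The alternatives were offsets of 1 and 16, quantile normalization, median centring, no filter, a filter at the 75th percentile, the mean of all kept probe sets, a replicate block, a mean-variance trend, each array left out in turn, and both arrays of part 1 or part 6 left out. Cbx6 and Dnmt3a kept their slope calls in 23 of 23 settings, Kdm1b in 22 and Setd6 in 21, against 19 for Kmt5a, 15 for Setd4, 15 of 22 for Smarcd3, 14 for Smarca1 and 7 of 22 for Kdm4c. Of 21 settings, the end call was kept in 20 for Cbx6, 19 for Chd7, 18 for Kdm1b, 18 for Smarca1, 16 for Smarcb1, 12 for Kmt5a and 10 for Kdm6b. The count of members called by slope, 9 with all arrays, was 4 to 10 with one array left out and 4 without part 6. The F test's count of 2 became 1 with an offset of 1, 4 with an offset of 16, 0 with no filter, 5 with the 75th percentile filter, 4 with the replicate block, 5 with the trend, 1 without part 1, 0 without part 6 and 0 to 2 with one array left out. Between the ends, 7 became 3 with no filter and 1 to 11 with one array left out: 11 without part 1 replicate 1, 4 without part 1 replicate 2, and 1 without either part 6 array. For neighbouring parts, 0 became 2 with the 75th percentile filter (Kdm6b and Smarcb1, part 1 to part 2) and 2 with the trend, and 0 to 1 with one array left out; between replicates, 0 became 3 with that filter (Dnmt1, Dnmt3a and Kmt2c) and 5 with the trend, and stayed 0 with one array left out. The list genes' count of 17 was 11 with the 75th percentile filter, 9 without part 1, 9 without part 6 and 13 to 17 with one array left out. The slope of Prdm2 reversed to -0.0085 when its probe sets were averaged; the cause was not tested. With the replicate number as a block, 10 members passed by slope, and apart from the changes given beside the results it altered no call of a member. Other settings changed calls too. Quantile normalization added Smarcb1 to the F calls and Setd4 to the end calls, and median centring added Setd4 to the end calls. The offset of 16, the 75th percentile filter and the trend added Setd4 and Setd6 to the end calls. Averaging the probe sets added Dnmt3a to the F calls and the end calls. It took Kdm6b, Kmt5a and Smarcb1 from the end calls. Leaving an end part out leaves fewer arrays and a shorter range. Dim genes near the array median are limited by signal over background.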
